A study of Mus musculus with 27 samples.

Results

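The nuclear factor I genes Nfia, Nfib, Nfic and Nfix, the SOX factor Sox9, the zinc finger gene Zbtb20 and the orphan nuclear receptor genes Nr2f1 and Nr2f2 were followed through the second part of gestation in the mouse fetal brain. They were taken from the gene read-count table by symbol alone, each symbol was found in 1 row, and they are 8 of the 55416 genes listed. All 8 passed the filter on low counts in every comparison.

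Poly-A RNA of the whole brain of female fetuses was sequenced in 27 libraries, 3 for each of 3 strains on day (d) 12, 15 or 17 of gestation, where the day of the vaginal plug was day 1. The strains were the inbred AKR/J, the inbred C57BL/6J, and B6.Cg-Cav1tm1Mls/J, here called Cav1-null, which carries a targeted null allele of the caveolin-1 gene Cav1 in all its tissues on a C57BL/6J background. The study set the short-lived AKR/J and Cav1-null mice against the long-lived C57BL/6J mice. No group was treated, and AKR/J and C57BL/6J carried no engineered allele. The sources used here do not say whether the 3 libraries of a group came from separate litters, so p-values measure only the spread between these libraries. The AKR/J and Cav1-null values on a day were set against the same 3 C57BL/6J libraries.

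Neural stem cells of the embryonic brain make neurons first and glia later, and the gain of gliogenic competence marks the passage between these periods. SOX9 is known to induce NFIA, and both proteins then act together on early astroglial genes, while NFIB and NFIX share much of the role of NFIA in radial glia and in maturing neurons. ZBTB20 promotes astrocyte formation and hippocampal and upper-layer fates, and NR2F1 and NR2F2 (COUP-TFI and COUP-TFII) pattern the cortex and are needed for the change from neuron to glia production. In bulk tissue, fewer cells that express a gene and less RNA of it per cell cannot be told apart.

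The libraries held 26363697 to 39759702 reads assigned to genes. Levels are CPM, the read count of a gene relative to the TMM-scaled library size, and changes are log2 fold changes with their standard error (SE) from edgeR's quasi-likelihood test, where a gene was called if its p, adjusted over all genes by Benjamini-Hochberg, was under 0.05. Cav1 was at 0 to 0.503 CPM in the Cav1-null libraries and at 9.42 to 41.1 CPM in the others. Some libraries stood apart. In the AKR/J d12 libraries the erythroid list took 3.56% to 13.6% of the reads (34317 to 201683 CPM, against at most 18214 CPM elsewhere) and the neuron markers summed to 1853 to 2422 CPM, against at least 3506 CPM elsewhere. Trophoblast and decidua markers reached 867 CPM in AKR/J d12 replicate 1, and connective tissue and meninges markers reached 5237 CPM in C57BL/6J d15 replicate 1. Forebrain markers were lowest in the third d12 library of each strain, at 77.3 CPM in AKR/J d12 replicate 3.

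Per kilobase of annotated exon, Nr2f1 was the most abundant of the genes with a median of 44.3 CPM per kb over the 27 libraries. It was followed by Nfib at 21.8, Nfix at 17.3, Nr2f2 at 11.8, Sox9 at 9.75, Zbtb20 at 8.51, Nfia at 7.53 and Nfic at 3.92 CPM per kb. Nfix had the widest range, from 1.45 to 81.9 CPM per kb, and Zbtb20 the narrowest, from 3.28 to 11.6 CPM per kb. The fewest reads behind any value were 208 reads of Nfix and the most were 27630 reads of Nfib. Counting error is not small beside the spread between libraries in every group. For Nr2f1 in Cav1-null d15 the 3 libraries held 5395 to 5823 reads and had an SD of 0.577 CPM on a mean of 188 CPM.

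**Figure D1:**
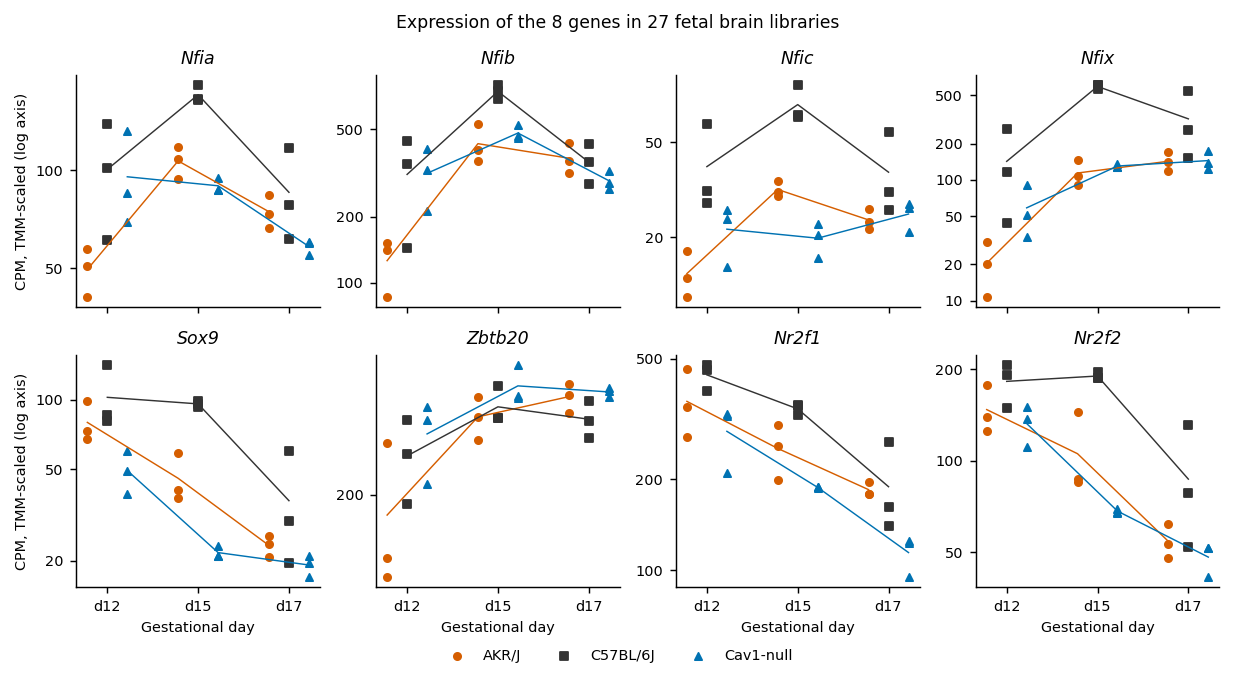
TMM-scaled CPM (log axis) of the 8 genes by gestational day, with 1 point per library and a line through the mean of each strain. C57BL/6J d15 libraries lie above all other groups for Nfia, Nfib, Nfic and Nfix, Sox9 and the Nr2f genes are lower on d17 than on d12, and Zbtb20 spans the narrowest range.

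The NFI genes rose between d12 and d15 in AKR/J, and those that changed between d15 and d17 in AKR/J and C57BL/6J fell. NFI proteins bind DNA as dimers at the palindrome TTGGCNNNNNGCCAA or at TTGGC alone. Nfix, on chromosome 8 (GRCm39 chr8:85426505-85527046, minus strand), was the NFI gene with the largest early change. In AKR/J it was at 20.3, 30.4 and 10.8 CPM in the d12 libraries, at 145, 90.4 and 107 CPM on d15 and at 169, 141 and 118 CPM on d17. In C57BL/6J it was at 117, 266 and 44.2 CPM on d12, at 608, 604 and 567 CPM on d15 and at 549, 151 and 260 CPM on d17. In Cav1-null mice it was at 91.4, 51.1 and 33.7 CPM on d12, at 135, 127 and 128 CPM on d15 and at 122, 138 and 173 CPM on d17. Every d15 library thus lay above every d12 library of its strain, while d15 and d17 overlapped in AKR/J and Cav1-null mice. The rise from d12 to d15 was 2.44 (SE 0.36) in AKR/J, 1.19 (SE 0.28) in Cav1-null mice and 2.03 (SE 0.55) in C57BL/6J, with adjusted p of 0.00331, 0.0167 and 0.0489 by edgeR. From d15 to d17 Nfix had a log2 fold change of 0.37 in AKR/J, 0.18 in Cav1-null mice and -0.86 in C57BL/6J, none of them called (adjusted p = 0.166, 0.216 and 0.18 by edgeR). Genes on the opposite strand, Trmt1, Lyl1 and G430095P16Rik, share 4.63%, 3.08% and 1.85% of the exon bases of Nfix, and Gm53593 and Gm16104 share 7.96% and 2.6% of those of Nfic. Trmt1 was at 45.4 to 66.7 CPM in AKR/J d12, above Nfix in each of these libraries, and at 45.4 to 82.1 CPM over the 27 libraries. The strand setting of the counting is not given in the sources used here, so that reads of Nfix and Nfic and of these genes may not be separated.

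The C57BL/6J d17 libraries ranged from 151 to 549 CPM in Nfix, and the highest, replicate 1, was near the d15 level. Without it the late fall of Nfix in C57BL/6J was 1.48 on the log2 scale (adjusted p = 0.0044 by edgeR). The early rise in C57BL/6J was not called without d12 replicate 1 (adjusted p = 0.133) or without any 1 of the d15 libraries (0.12 to 0.148), at values of 1.92 to 2.08. The early rise in Cav1-null mice was likewise not called without d12 replicate 2 (1.08, adjusted p = 0.0605) or any 1 d15 library (1.16 to 1.21, adjusted p = 0.0538 to 0.0671). The late value in AKR/J was called without d15 replicate 1 (0.57, adjusted p = 0.0386), and that in Cav1-null mice without d17 replicate 1 (0.27, adjusted p = 0.0423).

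Nfib, on chromosome 4 (chr4:82208410-82623987, minus strand), is needed for cortical glia and deep-layer axon tracts. In AKR/J it was at 151, 141 and 86.4 CPM on d12, at 530, 358 and 402 CPM on d15 and at 432, 360 and 316 CPM on d17. In C57BL/6J it was at 348, 443 and 143 CPM on d12, at 748, 793 and 687 CPM on d15 and at 426, 282 and 355 CPM on d17. In Cav1-null mice it was at 408, 325 and 213 CPM on d12, at 454, 465 and 521 CPM on d15 and at 286, 267 and 323 CPM on d17. The d15 libraries were above the d12 libraries without overlap in all 3 strains, and above the d17 libraries in C57BL/6J and Cav1-null mice. Nfib rose early in AKR/J by 1.73 (SE 0.27, adjusted p = 0.00388) and among Cav1-null mice by 0.64 (SE 0.19, adjusted p = 0.0371), and its value of 1.22 in C57BL/6J was not called (adjusted p = 0.0579, edgeR). From d15 to d17 Nfib fell by 1.03 (SE 0.18, adjusted p = 0.0157) in C57BL/6J and by 0.69 (SE 0.089, adjusted p = 8.62e-05) in Cav1-null mice, and its value was -0.18 (adjusted p = 0.44, edgeR) in AKR/J. The early C57BL/6J value was called without d12 replicate 2 (1.55, adjusted p = 0.0267) or d12 replicate 3 (0.88, adjusted p = 0.00778). The late fall in C57BL/6J was not called without any 1 d15 library (adjusted p = 0.0562 to 0.0827) or d17 replicate 3 (0.0917), nor was the early rise in Cav1-null mice without d12 replicate 2 (0.0851) or any 1 d15 library (0.0927 to 0.14).

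Nfia (chr4:97660971-98007111, plus strand), the NFI gene tied most closely to the start of gliogenesis, averaged 49.5 ± 8.22, 107 ± 11.9 and 74.6 ± 9.07 CPM (SD, n = 3) on d12, d15 and d17 in AKR/J. The means were 101 ± 39, 171 ± 10.4 and 85.6 ± 28.4 CPM (SD, n = 3) in C57BL/6J and 95.5 ± 33, 89.6 ± 4.67 and 58.3 ± 2.86 CPM (SD, n = 3) in Cav1-null mice. Nfia rose early in AKR/J by 1.07 (SE 0.18, adjusted p = 0.00475 by edgeR). Its early values of 0.73 in C57BL/6J (adjusted p = 0.0906) and -0.06 in Cav1-null mice were not called, and the latter lay between -0.23 and 0.23 when 1 library was left out. From d15 to d17 Nfia fell in all 3 strains, by 0.48 (SE 0.10, adjusted p = 0.0137) in AKR/J, by 0.96 (SE 0.22, adjusted p = 0.0318) in C57BL/6J and by 0.59 (SE 0.077, adjusted p = 0.000101) in Cav1-null mice. The early C57BL/6J value was called without d12 replicate 2 (1.03, adjusted p = 0.0201). The late fall was not called in AKR/J without d17 replicate 2 (adjusted p = 0.077) or replicate 3 (0.0618), nor in C57BL/6J without any 1 d15 library (0.0927 to 0.116) or d17 replicate 3 (0.144, edgeR).

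Nfic (chr10:81232020-81291469, minus strand), best known for tooth root formation, was the least abundant. It averaged 14.1 ± 3.14, 31.7 ± 2.43 and 23.6 ± 2.36 CPM (SD, n = 3) on d12, d15 and d17 in AKR/J, 39.5 ± 17.3, 71.8 ± 12.8 and 37.4 ± 15.7 CPM in C57BL/6J and 21.6 ± 5.76, 19.8 ± 3.17 and 25 ± 3.51 CPM in Cav1-null mice. In AKR/J Nfic rose by 1.14 (SE 0.21, adjusted p = 0.00636) and then fell by 0.39 (SE 0.11, adjusted p = 0.0409), while in Cav1-null mice it rose late by 0.36 (SE 0.13, adjusted p = 0.046 by edgeR). The late AKR/J call was lost without d15 replicate 1 or 2 or d17 replicate 2 or 3 (adjusted p = 0.0778 to 0.162), and the late Cav1-null call without d15 replicate 2 or 3 or d17 replicate 2 or 3 (0.0959 to 0.177). In C57BL/6J the values of Nfic were 0.83 and -0.91 (adjusted p = 0.0841 and 0.0674), and they were called without d12 replicate 2 (1.24, adjusted p = 0.00816) and without d17 replicate 1 (-1.28, adjusted p = 0.00307).

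Over all 8 genes, 4 rose and 1 fell between d12 and d15 in AKR/J, where 14.8% of the 19935 genes tested rose and 14% fell. Of the 8, 0 rose and 4 fell between d15 and d17 in AKR/J, against 11.6% and 10.4% of all genes. In C57BL/6J 1 rose early and 0 fell, against 7.08% and 7.8%, and 0 rose and 4 fell late, against 7.46% and 5.58%. In Cav1-null mice 2 rose and 3 fell early, against 11.6% and 11.8%, and 1 rose and 4 fell late, against 14.5% and 12.8% of all genes. The median log2 fold change of the 8 genes was 0.94, 0.56 and -0.08 in the early phase of AKR/J, then C57BL/6J and then Cav1-null mice, and -0.40, -0.93 and -0.31 in the late phase. The median of all genes tested was between -0.04 and 0.03 in these 6 comparisons. With the trend of fold change with GC content and length removed, a step chosen after seeing the data, the medians of the 8 genes were 0.48, 0.28 and -0.18 early and -0.29, -0.80 and -0.37 late, and the early value of Nfix was 1.98, 1.82 and 1.22, that of Nfib 1.45, 1.02 and 0.52 and that of Nfia 0.81, 0.52 and -0.20 in the same order of strains.

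**Figure D2:**
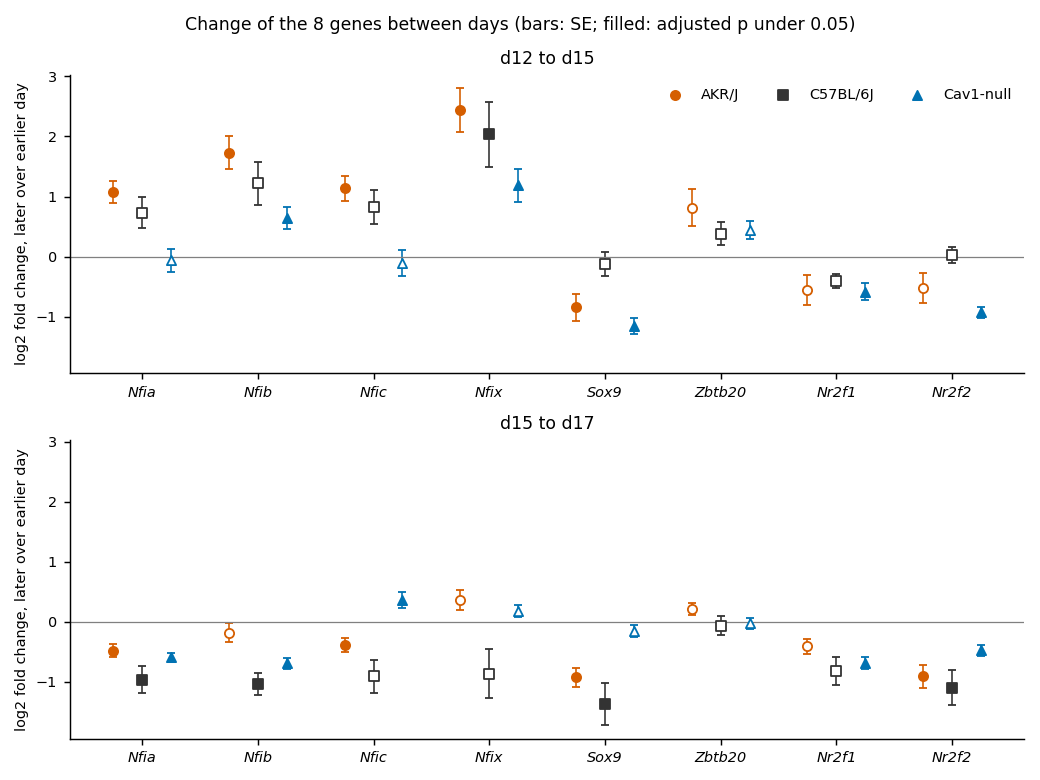
Log2 fold change of the 8 genes from d12 to d15 and from d15 to d17 in each strain, with SE, filled where the adjusted p was under 0.05. In the early phase the NFI genes of AKR/J lie between 1.07 and 2.44 and Sox9 below 0, and in the late phase of C57BL/6J all 8 values are below 0, from -1.37 to -0.06.

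The 5 NFI and Sox9 genes were lower in AKR/J and in Cav1-null mice than in C57BL/6J on d15. C57BL/6J d15 was the highest of the 9 groups for Nfia, Nfib, Nfic and Nfix, and its libraries overlapped with no next group. For Nfix this group averaged 593 ± 22.6 CPM (SD, n = 3), followed by C57BL/6J d17 at 320 ± 206, Cav1-null d17 at 145 ± 25.6, AKR/J d17 at 143 ± 25.5, C57BL/6J d12 at 142 ± 113, Cav1-null d15 at 130 ± 4.53 and AKR/J d15 at 114 ± 28 CPM. Each of these 6 groups overlapped with the next, and Cav1-null d12 (58.8 ± 29.6 CPM) and AKR/J d12 (20.5 ± 9.83 CPM) did not overlap with each other. On d15 the AKR/J values against C57BL/6J were -0.63 (SE 0.084) for Nfia, -0.75 (SE 0.14) for Nfib, -1.13 (SE 0.14) for Nfic and -2.34 (SE 0.16) for Nfix, with adjusted p of 0.00107, 0.00487, 0.000851 and 0.000149 by edgeR. The Cav1-null values were -0.89, -0.59, -1.82 and -2.15, and Nfix had an SE of 0.06 and an adjusted p of 1.21e-08. These NFI calls held with any 1 library left out.

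Of the 8 genes, 7 were lower in AKR/J than in C57BL/6J on d15 and 0 were higher, against 22.3% and 18.8% of the 19692 genes tested. In Cav1-null mice 7 were lower and 0 higher on d15, against 31.8% and 26.8% of 19827 genes. On d12, 2 were lower and 0 higher in AKR/J, against 14.1% and 14.5% of all genes. These were Nfix at -2.67 (SE 0.62, adjusted p = 0.0179) and Nfic at -1.37 (SE 0.32, adjusted p = 0.0191), and both calls were lost without AKR/J d12 replicate 1 or 3 or C57BL/6J d12 replicate 2, with adjusted p of 0.065 to 0.0741 and values down to -1.88 for Nfix and -0.98 for Nfic. Without C57BL/6J d12 replicate 3, Nfia (-1.19, adjusted p = 0.013) and Nfib (-1.55, adjusted p = 0.0123) were called as well.

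On d17 edgeR called 0 of the 8 genes in AKR/J, where 0.361% of all genes were lower and 0.381% higher, or in Cav1-null mice, where 0.0442% were lower and 0.00491% higher. In Cav1-null mice on d12 edgeR called 0 of 19475 genes (0% lower and 0% higher), with 4309 genes at an unadjusted p under 0.05, while DESeq2 called 1756 genes. Cav1 itself was thus not called by edgeR, at 0 to 0.208 CPM in Cav1-null d12 and 10.5 to 18.6 CPM in C57BL/6J d12. The lack of calls on d12 therefore does not show a lack of difference. Of the 8 genes, 3 had an unadjusted p under 0.05 on d17 in AKR/J, 5 on d17 and 4 on d12 in Cav1-null mice, and DESeq2 called 1, 0 and 2 of them. Among all genes, 4275 of 20207, 1538 of 20358 and 4309 of 19475 were under that p in the same order. DESeq2 called 1164 of 36089, 53 of 36429 and 1756 of 34548 genes. The values of the 8 genes on d17 ran from -1.14 to 0.20 in AKR/J and from -1.08 to 0.28 in Cav1-null mice, with Nfix the lowest in both (adjusted p = 0.184 and 0.575). Without C57BL/6J d17 replicate 2, whose Nfix of 151 CPM was the lowest of its group, 4 genes were called lower in AKR/J, namely Nfic (-0.80), Nfix (-1.43, adjusted p = 0.00859), Sox9 (-0.88) and Nr2f2 (-0.88). Without that library 5 genes were called lower in Cav1-null mice, namely Nfia (-0.67), Nfix (-1.41, adjusted p = 0.0243), Sox9 (-1.16), Nr2f1 (-0.83) and Nr2f2 (-1.04). The shares of all genes called without that library are not given here. Libraries of Cav1-null and C57BL/6J mice did not overlap on d17 for Nfia, Nr2f1 and Nr2f2, which were lower in Cav1-null mice, and for Zbtb20, which was higher there. The share of all genes without overlap in this comparison was not computed, so this is a description and no test.

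**Figure D3:**
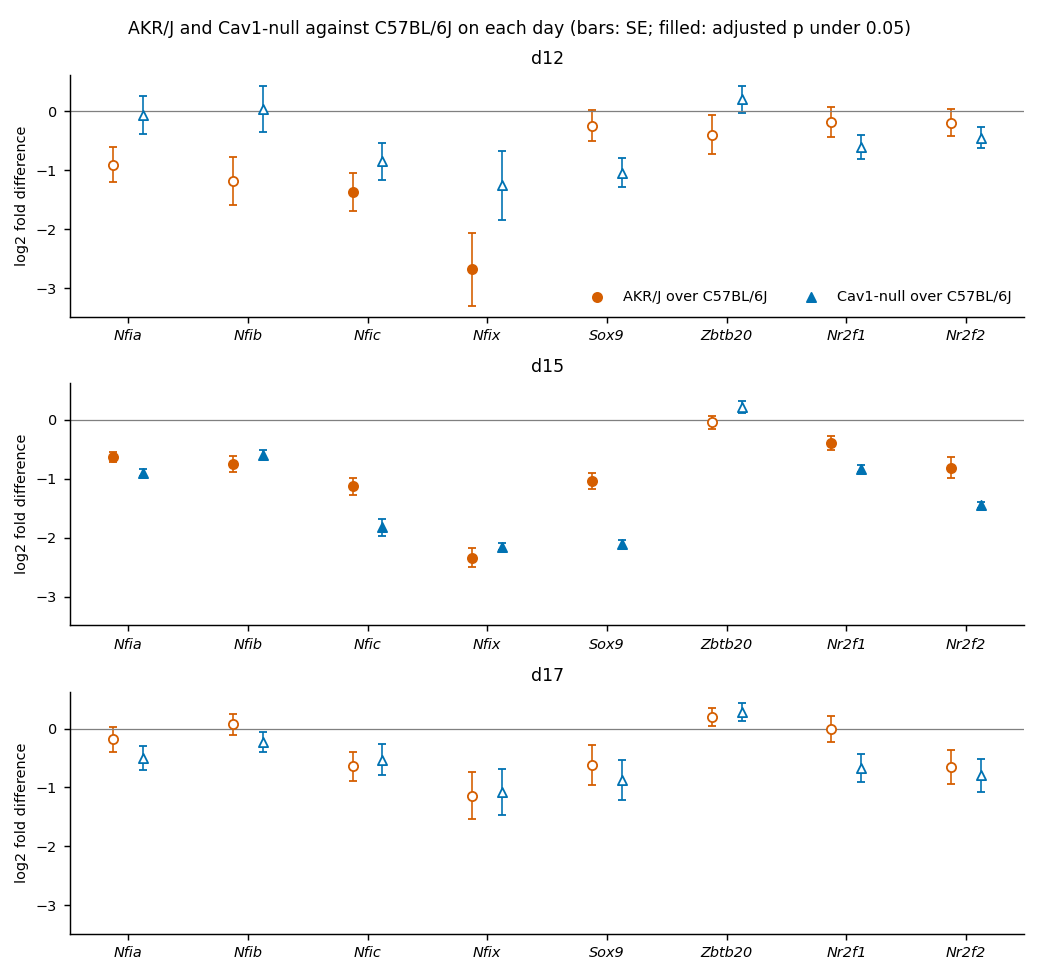
Log2 fold difference of AKR/J and of Cav1-null mice from C57BL/6J for the 8 genes on each day, with SE, filled where the adjusted p was under 0.05. On d15 all genes but Zbtb20 are below 0 and filled in both strains, and on d17 none is filled.

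The longest transcripts of Nfic, Nfix and Nr2f1 are rich in GC (57.45%, 56.53% and 56.77%), those of the other members range from 42.86% to 49.23%. After the same trend with GC content and length was removed, with no fit for either alone, the d15 value of Nfix against C57BL/6J was -1.67 in AKR/J and -1.22 in Cav1-null mice and that of Nfic was -0.42 and -0.83, all still called. Nr2f1 went from -0.39 to 0.05 in AKR/J and from -0.82 to -0.18 in Cav1-null mice, and both calls were lost. On d12 the AKR/J value of Nfix became -1.81 and stayed called, and that of Nfic became -0.48 and was not. Nfia, Nfib, Sox9 and Nr2f2 had d15 values of -0.56, -0.65, -0.96 and -0.95 in AKR/J and of -0.86, -0.52, -1.94 and -1.56 in Cav1-null mice.

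Whether the change between days differed from that of C57BL/6J was tested over 12 libraries, and edgeR called 0 of the 8 genes. At an unadjusted p under 0.05 there were 1 and 2 of the 8 for AKR/J in the early and late phase and 4 and 3 for Cav1-null mice, and DESeq2 called 0, 0, 2 and 2. Among all genes, 3432 of 21090, 1617 of 21373, 3181 of 21191 and 4683 of 21431 were under that p in the same order. DESeq2 called 945 of 38818, 41 of 38573, 428 of 37585 and 1294 of 38615 genes. By edgeR, 0.0711% of all genes were called for AKR/J in the early phase and 0.00468% in the late phase, and 0.00472% and 0.252% for Cav1-null mice. For AKR/J against C57BL/6J the differences in change of Nfix, Nfic and Sox9 were 0.36, 0.26 and -0.77 early and 1.27, 0.56 and 0.48 late. For Cav1-null mice against C57BL/6J those of Nfix, Nfic and Sox9 were -0.89, -0.96 and -1.06 early and 1.01, 1.24 and 1.19 late, where the lowest adjusted p was 0.0786 by edgeR, for Nfic. In each comparison the gene with the lowest adjusted p by edgeR was Sox9 early (-0.77, adjusted p = 0.269) and Nfib late (0.88, adjusted p = 0.516) for AKR/J, and Nr2f2 early (-0.99, adjusted p = 0.159) and Nfic late for Cav1-null mice. Single libraries of C57BL/6J decided these calls. Without d17 replicate 1, 6 of the 8 genes were called for AKR/J in the late phase (Nfix 1.87, adjusted p = 0.01) and 7 for Cav1-null mice (Sox9 1.81, adjusted p = 6.2e-05), and without d12 replicate 2, 3 were called for Cav1-null mice in the early phase (Sox9 -1.36, adjusted p = 0.00484). The shares of all genes above are those of the fits with every library. Those of the fits without 1 library are not given here, so these counts have no background.

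The levels of the NFI genes were set beside those of brain region, neuron and endothelium markers. The 10 forebrain markers, which include Emx1, Tbr1 and Eomes, summed to 77.3 to 525 CPM in AKR/J d12, 622 to 1123 CPM on d15 and 703 to 1067 CPM on d17. In C57BL/6J they summed to 355 to 1364, 1679 to 1949 and 585 to 1350 CPM, and in Cav1-null mice to 240 to 1150, 1068 to 1146 and 641 to 848 CPM on d12, d15 and d17. The highest sums were those of C57BL/6J d15, the group with the highest NFI levels, and the lowest was that of AKR/J d12 replicate 3, the library with the lowest Nfia, Nfib, Nfic and Nfix. Over the 27 libraries, which share days and strains, the sum had a Pearson r of 0.90 with Nfib, 0.83 with Nfix, 0.78 with Nfia and 0.63 with Nfic, and of 0.04 with Sox9, on log2 values. After the mean of each group was subtracted, r was 0.89 for Nfib, 0.80 for Nfix, 0.78 for Nfia, 0.36 for Nfic and 0.47 for Sox9. The 8 neuron markers summed to 1853 to 2422, 4032 to 6117 and 6029 to 6240 CPM on d12, d15 and d17 in AKR/J, to 3506 to 5707, 6553 to 7256 and 5394 to 7899 CPM in C57BL/6J and to 4423 to 5764, 5720 to 5756 and 6012 to 6493 CPM in Cav1-null mice. Between d15 and d17 in Cav1-null mice this sum was higher without overlap while Nfia and Nfib fell and Nfic rose, and in AKR/J its median went from 5051 to 6172 CPM while Nfia and Nfic fell. Over the 27 libraries it had r of 0.55, 0.79, 0.57 and 0.84 with Nfia, Nfib, Nfic and Nfix, and 0.57, 0.52, 0.22 and 0.52 after subtraction of group means. The sum of the midbrain and hindbrain markers had r of 0.41, 0.21, 0.58 and 0.31 with these genes, and -0.25, -0.44, 0.18 and -0.18 after subtraction. That of the endothelium markers had r of 0.61, 0.29, 0.79 and 0.45, and 0.36, 0.14, 0.67 and 0.35 after subtraction, so that Nfic was closer to it than to the forebrain sum. On d15 the endothelium markers summed to 119 to 147 CPM in AKR/J, 213 to 295 CPM in C57BL/6J and 81.8 to 101 CPM in Cav1-null mice.

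Of the 10 forebrain markers, 8 were lower and 0 higher in AKR/J than in C57BL/6J on d15 (22.3% and 18.8% of all genes), and 8 were lower and 1 higher in Cav1-null mice (31.8% and 26.8%). In AKR/J 2 rose and 0 fell early, and 1 rose and 2 fell late. In C57BL/6J 1 rose and 0 fell early, where 14.8% and 7.08% of all genes rose early in these strains. In C57BL/6J 0 rose and 5 fell late, and in Cav1-null mice 2 rose and 1 fell early and 0 rose and 8 fell late. Of all genes 11.6% rose and 11.8% fell early in Cav1-null mice, and 10.4%, 5.58% and 12.8% fell late in AKR/J, then C57BL/6J and then Cav1-null mice. Of these markers, 1 was at 0 in 1 AKR/J d12 library and none was at 0 in the other libraries. The 12 erythroid genes had r of -0.74 with Nfib and -0.79 with Nfix, and taking them out of the table changed 0 of the 96 calls of the 8 genes in the 12 comparisons. This step removed only these 12 genes, so it cannot show how the blood content of a library bears on the calls. The part of the brain regions, of neurons, of endothelium and of blood cells in the NFI differences was not tested.

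**Figure D4:**
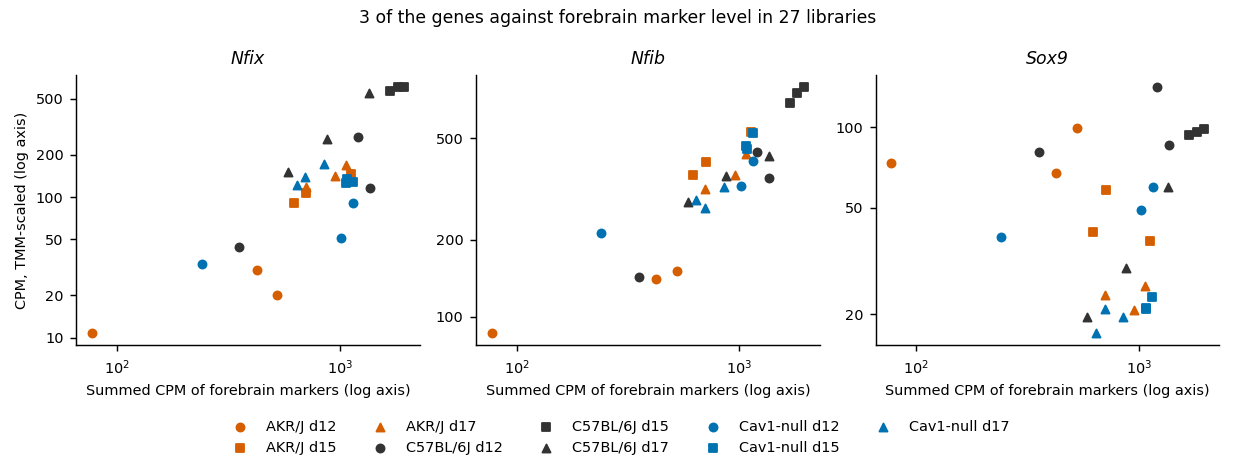
TMM-scaled CPM of Nfix, Nfib and Sox9 against the summed CPM of 10 forebrain markers (both axes logarithmic), with 1 point per library, coloured by strain and shaped by day. Nfix and Nfib rise with the marker sum (r = 0.83 and 0.90 on log2 values, 27 libraries), and Sox9 does not (r = 0.04).

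Upstream of the annotated starts, the NFI site TTGGC was searched on both strands in the 250 bases before each RefSeq start. Of the 8 genes, 6 matched the RefSeq promoter table, with 10 promoters, all of which were found once in GRCm39. TTGGC or its complement was in 3 of these 10 promoters, against 41.5% of all 32851 promoters, and the palindrome in 0, against 0.0365%. Other words searched were ACAAAG and ACAATG, which SOX proteins bind (16.5% and 10.7% of all promoters), the nuclear receptor site AGGTCA (14%) and TATAAA (12.4%). ACAAAG was in 1 promoter each of Nfix and Nr2f1, ACAATG in those of Nfia and the second Nfix start, and AGGTCA in those of the second start and of the third start of Nfix. The promoter of the second Nfix start, which holds 3 of the words (RefSeq, minus strand, start at base 85502457 of chromosome 8 in GRCm39, GC content 58.4%), is shown because Nfix varied most, with TTGGC in capitals.
Nfix start 2, 250 bases upstream: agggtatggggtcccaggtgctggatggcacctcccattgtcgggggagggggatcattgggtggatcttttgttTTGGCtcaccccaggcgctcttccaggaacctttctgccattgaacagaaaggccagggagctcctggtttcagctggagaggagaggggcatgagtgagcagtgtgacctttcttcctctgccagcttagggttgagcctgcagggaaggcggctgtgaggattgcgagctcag

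Sox9 was lower in every d17 library than in every d12 library of its strain, and the phase in which its fall was called was not the same in the 3 strains. Sox9 (chr11:112673009-112678586, plus strand) encodes a factor needed for neural stem cells and the start of gliogenesis, and it also directs cartilage formation. In AKR/J Sox9 was at 98.9, 67.2 and 73.2 CPM on d12, at 37.5, 40.7 and 58.5 CPM on d15 and at 25.5, 20.7 and 23.6 CPM on d17. In C57BL/6J it was at 85.6, 142 and 80.5 CPM on d12, at 96.4, 98.5 and 93.3 CPM on d15 and at 60, 19.6 and 29.7 CPM on d17. In Cav1-null mice it was at 60, 48.9 and 38.9 CPM on d12, at 20.8, 21 and 23.1 CPM on d15 and at 17, 20.9 and 19.5 CPM on d17. The days did not overlap in AKR/J, d12 and d15 overlapped in C57BL/6J, and d15 and d17 overlapped in Cav1-null mice.

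In AKR/J Sox9 fell by 0.85 (SE 0.22, adjusted p = 0.0241) early and by 0.93 (SE 0.16, adjusted p = 0.00542) late. In C57BL/6J its early value was -0.13 (adjusted p = 0.685) and it fell late by 1.37 (SE 0.35, adjusted p = 0.0435), whereas in Cav1-null mice it fell early by 1.15 (SE 0.14, adjusted p = 0.00102) and its late value was -0.15 (adjusted p = 0.307, edgeR). The difference between Cav1-null and C57BL/6J mice in these changes was not called (above). The early AKR/J call was lost without d12 replicate 1 or 3 or d15 replicate 1 or 2 (adjusted p = 0.0533 to 0.116), and the late C57BL/6J call without any 1 d15 library (0.112 to 0.125) or d17 replicate 3 (0.173). On d15 Sox9 was lower than in C57BL/6J by 1.03 (SE 0.14, adjusted p = 0.00116) in AKR/J and its value in Cav1-null mice was -2.11 (SE 0.067, adjusted p = 1.5e-08 by edgeR). On d12 it did not overlap between Cav1-null and C57BL/6J mice, at -1.04 (adjusted p = 0.105), and was called there without C57BL/6J d12 replicate 3 (-1.19, adjusted p = 0.0344).

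Over the 27 libraries Sox9 ran closest to the Nr2f genes, with r of 0.96 with Nr2f2 and 0.90 with Nr2f1, against 0.44 with Nfia, 0.41 with Nfic, -0.0036 with Nfix, -0.03 with Nfib and -0.53 with Zbtb20. After the mean of each group was subtracted, r was 0.83 with Nr2f2, 0.59 with Nr2f1 and 0.54 to 0.76 with the 4 NFI genes, so that within groups the libraries high in Sox9 tended to be high in these genes too. Its r was 0.94 with the sum of the neurogenic competence and timing list and 0.92 with that of the gliogenic cytokine and BMP pathway list. Both were 0.74 after subtraction of group means. Nr2f1 and Nr2f2 had r of 0.96 and 0.93 with the neurogenic list. The r of Sox9 was also 0.62 with the cartilage markers and 0.73 with the connective tissue and meninges markers, which summed to 593 to 1465 CPM in AKR/J d12, 133 to 1416 on d15 and 81.6 to 139 CPM on d17. After subtraction of group means these r were -0.06 and 0.25. With the endothelium markers the r of Sox9 was 0.74, and 0.65 after subtraction. The connective tissue sums were 345 to 1099, 367 to 5237 and 97.1 to 1220 CPM in C57BL/6J and 178 to 1248, 97.3 to 206 and 92.2 to 184 CPM in Cav1-null mice. Within C57BL/6J d15, Sox9 was at 96.4 CPM in the library with 5237 CPM of these markers and at 98.5 and 93.3 CPM in the others, and all 10 markers were detected in every library. The antisense gene BC006965 covers 13% of the exon bases of Sox9, and it was at 1.10 to 8.07 CPM. Whether reads were counted by strand is not given in the sources used here, so reads of the pair may not be separated.

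Zbtb20 (chr16:42696093-43462965, plus strand) was called by edgeR in 0 of the 12 comparisons of days or strains, with 3 at an unadjusted p under 0.05, and by DESeq2 in 2. In AKR/J it was at 123, 271 and 137 CPM on d12, at 358, 277 and 318 CPM on d15 and at 362, 387 and 326 CPM on d17. In C57BL/6J it was at 312, 254 and 189, at 315, 381 and 315 and at 310, 349 and 280 CPM, and in Cav1-null mice at 337, 311 and 213, at 354, 359 and 432 and at 371, 358 and 377 CPM on the 3 days. Every d15 library was above every d12 library of its strain, by as little as 315 against 312 CPM in C57BL/6J, and d15 and d17 overlapped. The early values were 0.81, 0.38 and 0.44 in AKR/J, then C57BL/6J and then Cav1-null mice, with adjusted p of 0.0798, 0.185 and 0.0667 by edgeR. Zbtb20 was called early in AKR/J without d12 replicate 2 (1.22, adjusted p = 0.000547), early in Cav1-null mice without d12 replicate 3 (0.29, adjusted p = 0.0369), on d12 between AKR/J and C57BL/6J without AKR/J d12 replicate 2 (-0.83, adjusted p = 0.0309) and on d15 between Cav1-null and C57BL/6J mice without C57BL/6J d15 replicate 2 (0.34, adjusted p = 0.0132). After the trend with GC content and length was removed, its late value in Cav1-null mice was -0.26 and called.

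Of the 6 comparisons of days, Nr2f2 fell in 4 and Nr2f1 in 2, and neither rose in any. Nr2f2 (chr7:70001692-70016519, minus strand), which marks caudal and ventral progenitors and interneurons, was at 177, 139 and 125 CPM on d12 in AKR/J, at 86.8, 84.9 and 145 CPM on d15 and at 53.3, 47.7 and 61.8 CPM on d17. In C57BL/6J it was at 206, 191 and 149 CPM on d12, at 187, 195 and 187 CPM on d15 and at 130, 52 and 78.4 CPM on d17. In Cav1-null mice it was at 137, 150 and 111 CPM on d12, at 67.4, 69.6 and 67.7 CPM on d15 and at 51.5, 51.6 and 41.5 CPM on d17. In C57BL/6J the d12 and d15 libraries overlapped and the d17 libraries lay below them, while in Cav1-null mice the days did not overlap.

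Nr2f2 fell late in AKR/J by 0.91 (SE 0.19, adjusted p = 0.0132), late in C57BL/6J by 1.09 (SE 0.29, adjusted p = 0.0476), and among Cav1-null mice early by 0.93 (SE 0.096, adjusted p = 0.000539) and late by 0.47 (SE 0.092, adjusted p = 0.00191 by edgeR). Its early values were -0.52 (adjusted p = 0.147) in AKR/J and 0.02 (adjusted p = 0.92) in C57BL/6J. The late AKR/J call was lost without d17 replicate 2 (adjusted p = 0.0787) and the late C57BL/6J call without any 1 d15 library (0.124 to 0.138) or d17 replicate 3 (0.18). On d15 its value against C57BL/6J was -0.81 (SE 0.18, adjusted p = 0.0085) in AKR/J and -1.44 in Cav1-null mice.

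Nr2f1 (chr13:78337092-78348578, minus strand), which sets the rostral and caudal areas of the cortex, averaged 361 ± 93.9, 253 ± 51.4 and 184 ± 10.1 CPM (SD, n = 3) on d12, d15 and d17 in AKR/J. The means were 442 ± 45.6, 341 ± 14.2 and 189 ± 66.7 CPM (SD, n = 3) in C57BL/6J and 288 ± 67.8, 188 ± 0.577 and 114 ± 16.8 CPM (SD, n = 3) in Cav1-null mice. In Cav1-null mice Nr2f1 fell by 0.58 (SE 0.14, adjusted p = 0.0177) early and by 0.69 (SE 0.098, adjusted p = 0.000208) late. Its values of -0.55 and -0.41 in AKR/J (adjusted p = 0.129 and 0.0507) and of -0.41 and -0.82 in C57BL/6J (adjusted p = 0.0507 and 0.057, edgeR) were not called. The late AKR/J value was called without d15 replicate 2 (-0.53, adjusted p = 0.00511), the early C57BL/6J value without d12 replicate 2 (-0.39, adjusted p = 0.041) or 3 (-0.48, adjusted p = 0.0136) and the late one without d17 replicate 1 (-1.12, adjusted p = 0.00173). The early Cav1-null call was lost without d12 replicate 1 or 2 or any 1 d15 library (adjusted p = 0.054 to 0.0777). On d15 Nr2f1 was lower in AKR/J by 0.39 (SE 0.12, adjusted p = 0.031), a call lost without AKR/J d15 replicate 1 or any 1 C57BL/6J d15 library (0.0609 to 0.138). Antisense genes cover 17.5% of the exon bases of Nr2f1 (A830082K12Rik, at 23.5 to 69.7 CPM) and 13% of those of Nr2f2 (B130024G19Rik, at 5.52 to 27.6 CPM), of which Gm72772 covers another 5.23%. Without a stated strand setting, reads of these pairs may not be separated either.

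The splice junction table gave a second readout, which exons were joined. Nr2f2 has alternative first exons that are spliced to 1 shared acceptor. The proximal first exon (chr7:70009636-70010341) and the distal first exon (chr7:70015841-70016519), whose donors lie 6205 bases apart, each hold an annotated start codon, so that the 2 forms begin with different amino acids. The splice sites are shown in GRCm39 on the minus strand, with exon bases in capitals, because the junction reads told the forms apart at these bases.
Proximal donor, chr7:70009621-70009650: GCATGAGACGGGAAGgtatcggcctctcat
Distal donor, chr7:70015826-70015855: GCAAATATGGTTTTGgtatgtttgcttact
Shared acceptor, chr7:70008024-70008053: cctttcctcctgcagCTGTACAGAGAGGCA

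The mean share of junction reads from the distal donor was higher on d17 than on d12 in each strain. In AKR/J the share was 22.8%, 5.95% and 12.9% on d12, 27.1%, 28.4% and 17.2% on d15 and 27.9%, 20.3% and 32.4% on d17. In C57BL/6J it was 14.8%, 13.8% and 17.2%, then 14.7%, 14.7% and 8.96%, and then 20.1%, 15.2% and 25.9%. In Cav1-null mice it was 14.9%, 14.6% and 16.1%, then 24.8%, 33.7% and 26.5%, and then 18.9%, 31.2% and 30.7%. The d12 and d17 libraries overlapped in AKR/J and C57BL/6J and did not overlap in Cav1-null mice, and the Cav1-null d15 libraries lay above those of C57BL/6J d15. Each share rests on 46 to 469 reads at the acceptor.

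Over the 18 libraries of d12 and d17, with strain as a covariate, the logit of the distal share of Nr2f2 was 0.66 higher on d17 (SE 0.21, adjusted p = 0.0413 by limma over 10071 junction ends). Among all junction ends 14.4% were called, and among the 9 ends of the members tested, 2 were called, which are both sides of this choice at Nr2f2. The other 7 were 3 of Zbtb20, 3 of Nfib and 1 of Nfix. With 1 library left out the adjusted p of Nr2f2 ran from 0.022 to 0.0791, and the call held in 4 of the 18 fits, namely without AKR/J d12 replicate 1, C57BL/6J d12 replicate 3, C57BL/6J d17 replicate 2 or Cav1-null d17 replicate 1.

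**Figure D5:**
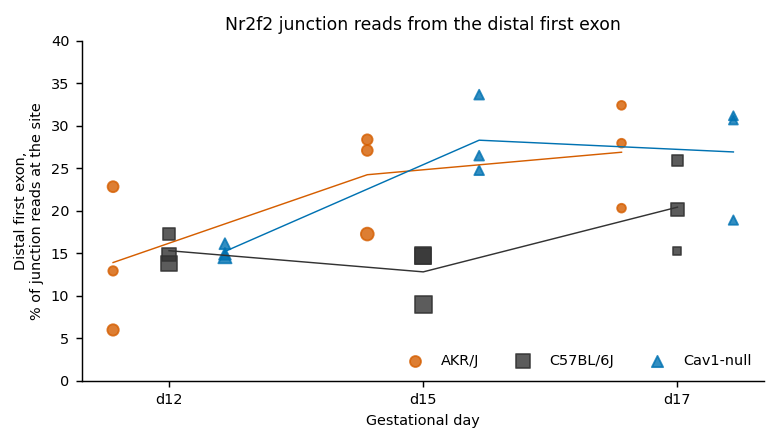
Share of Nr2f2 junction reads at the shared acceptor that came from the distal first exon, in percent, by day and strain, with 1 point per library (larger points have more reads) and a line through the means. The means are 13.9% on d12 and 26.9% on d17 in AKR/J, 15.3% and 20.4% in C57BL/6J and 15.2% and 26.9% among Cav1-null mice.

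The 225 bases before the distal first exon (GRCm39 chr7:70016520-70016744, minus strand) hold 1 TTGGC, in capitals, whose first base lies 113 bases before the exon. They are shown because the distal share was called higher on d17 than on d12 in the main fit, a call lost in 14 of the fits with 1 library left out.
Nr2f2 distal start, 225 bases upstream: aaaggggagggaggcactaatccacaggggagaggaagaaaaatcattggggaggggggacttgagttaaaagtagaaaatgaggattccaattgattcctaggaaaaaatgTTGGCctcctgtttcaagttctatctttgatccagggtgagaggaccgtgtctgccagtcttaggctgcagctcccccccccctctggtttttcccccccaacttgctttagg

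Partners and downstream genes were read from lists. The SOX partners of SOX9 are the SOXE genes Sox8 and Sox10 and the SOXD genes Sox5 and Sox6, which modulate SOXE activity. Of these 4, 3 rose and 0 fell in AKR/J between d12 and d15 (median 1.62) and 2 rose and 0 fell in C57BL/6J (median 1.18). The 4 values of Cav1-null mice ran from -0.40 to 0.74 (median 0.15), none with an adjusted p under 0.0755. Between d15 and d17, 0 rose and 1 fell in AKR/J, 0 rose and 2 fell in C57BL/6J, and 1 rose and 2 fell in Cav1-null mice. Of all genes 14.8%, 7.08% and 11.6% rose early and 10.4%, 5.58% and 12.8% fell late in these strains. Sox5 was at 29.5, 32.7 and 17.9 CPM in AKR/J d12 and at 123, 73.2 and 74.2 CPM on d15, a rise of 1.72 (SE 0.29, adjusted p = 0.00503). In C57BL/6J Sox5 rose by 1.40 (SE 0.30, adjusted p = 0.0315) and then fell by 1.26 (SE 0.17, adjusted p = 0.00798), and among Cav1-null mice it fell late by 0.73 (SE 0.08, adjusted p = 1.51e-05 by edgeR). On d15, 3 of the 4 partners were lower in AKR/J and 4 of 4 in Cav1-null mice than in C57BL/6J, against 22.3% and 31.8% of all genes.

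Of 18 astroglial genes on which NFI and SOX9 proteins are known to act, more rose than fell in both phases of each strain. Early, 11 rose and 1 fell in AKR/J (median 1.69), 4 rose and 0 fell in C57BL/6J (1.11) and 7 rose and 3 fell in Cav1-null mice (0.54). Late, 10 rose and 1 fell in AKR/J (0.69), 6 rose and 0 fell in C57BL/6J (0.44) and 15 rose and 1 fell in Cav1-null mice (0.76). Of all genes 14.8%, 7.08% and 11.6% rose early and 11.6%, 7.46% and 14.5% rose late in these strains, while 14%, 7.8% and 11.8% fell early and 10.4%, 5.58% and 12.8% fell late. The median summed level of the 18 genes was lower on d15 than on d12 in AKR/J, with no test, at 1168 to 3188 CPM on d12 (median 2587) and 1219 to 1584 CPM on d15 (median 1352), and over the 27 libraries it had r of -0.30 to 0.05 with the 4 NFI genes. Ntsr2, an astrocyte neurotensin receptor, led the early rise in AKR/J at 4.93 (SE 0.91, adjusted p = 0.00647 by edgeR), and Tnc, the radial glial matrix protein tenascin-C, led in C57BL/6J at 2.62 (SE 0.43, adjusted p = 0.0202). Gfap, the astrocyte intermediate filament gene, was at 0.701, 0.361 and 0.393 CPM in AKR/J d15 and at 1.70, 4.62 and 6.21 CPM on d17. In C57BL/6J Gfap was at 1.11, 0.871 and 1.14 CPM on d15 and at 14.3, 13.3 and 14.8 CPM on d17, and in Cav1-null mice at 0.872, 1.26 and 1.90 CPM and at 16.4, 6.69 and 14.9 CPM. The days did not overlap in any strain, and the late rise of Gfap was 3.15 (SE 0.52), 3.80 (SE 0.19) and 3.27 (SE 0.34) in AKR/J, then C57BL/6J and then Cav1-null mice (adjusted p = 0.00497, 0.000784 and 1.57e-05 by edgeR). Thus Gfap rose in the interval in which Nfia fell in each strain.

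The 3 genes bound jointly by NFIA and SOX9 in the spinal cord were not alike. Mmd2 rose in both phases in AKR/J (1.59 and 0.88) and Cav1-null mice (0.73 and 0.60) and late in C57BL/6J (0.73), each at an adjusted p of at most 0.00982. Apcdd1, a WNT inhibitor gene, fell late in AKR/J by 1.18 (adjusted p = 0.0077) and in both phases in Cav1-null mice (-0.97 and -0.33, adjusted p = 0.00139 and 0.0308), and its late value in C57BL/6J was -1.11 (adjusted p = 0.0805, edgeR). Zcchc24 rose in Cav1-null mice late by 0.56 (adjusted p = 0.000906) and was called in no other comparison of days. On d15, 11 of the 18 targets were lower and 1 higher in AKR/J than in C57BL/6J (22.3% and 18.8% of all genes), and 12 were lower and 3 higher in Cav1-null mice (31.8% and 26.8%). On d12, 8 were lower and 1 higher in AKR/J (14.1% and 14.5% of all genes).

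Ligands of the cytokine and BMP pathway act with STAT3 and SMAD proteins on astroglial genes. Of the 25 genes of this pathway, 23 or 24 were tested, of which 3 rose and 2 fell early in AKR/J, 3 rose and 0 fell in C57BL/6J and 2 rose and 6 fell in Cav1-null mice. Late, 2 rose and 4 fell in AKR/J, 1 rose and 2 fell in C57BL/6J and 4 rose and 3 fell in Cav1-null mice. Of all genes 14.8%, 7.08% and 11.6% rose and 14%, 7.8% and 11.8% fell early in the same order of strains, and 11.6%, 7.46% and 14.5% rose and 10.4%, 5.58% and 12.8% fell late. Bmp4 fell early in AKR/J by 1.73 (SE 0.49, adjusted p = 0.0315). On d15, 12 genes were lower and 1 higher in Cav1-null than in C57BL/6J mice, with the CNTF receptor gene Cntfr at -1.72 (adjusted p = 2e-08 by edgeR), and 7 were lower and 1 higher in AKR/J, against 31.8% and 22.3% of all genes lower.

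Of the 14 genes of neurogenic competence and timing, none rose between days by edgeR in any strain. Early falls took 14%, 7.8% and 11.8% of all genes and late falls 10.4%, 5.58% and 12.8% in AKR/J, then C57BL/6J and then Cav1-null mice. In AKR/J 7 of the 14 fell early and 10 late, in C57BL/6J 7 and 10, and in Cav1-null mice 9 and 9, with medians of -0.61, -0.70, -0.70, -1.17, -0.77 and -0.71 in that order. Lin28a, which holds back maturation of let-7, fell early in AKR/J by 3.47 (SE 0.51), and Hmga2, a chromatin protein of young progenitors, fell early in C57BL/6J (-2.51, SE 0.34) and in Cav1-null mice (-2.94, SE 0.15). Neurog1, a proneural factor, had the largest late fall in the 3 strains, at -3.21 (SE 0.52), -4.15 (SE 0.34) and -2.61 (SE 0.59). The 10 radial glia markers were split, where 5 fell and 1 rose early and 7 fell and 2 rose late in AKR/J, 4 fell and 0 rose and then 5 fell and 1 rose in C57BL/6J, and 6 fell and 1 rose in each phase in Cav1-null mice. Of all genes 14.8%, 7.08% and 11.6% rose early and 11.6%, 7.46% and 14.5% rose late in these strains. The median summed level of these markers was 3721, 1485 and 1676 CPM on d12, d15 and d17 in AKR/J, so that it was not lower on d17 than on d15, and it was 2248, 1692 and 1370 CPM in C57BL/6J and 1786, 1410 and 1342 CPM in Cav1-null mice.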

How the data were processed

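The authors trimmed reads with cutadapt and fastp and mapped them to GRCm39 with STAR. The deposited gene table holds raw read counts per Ensembl gene and the deposited splice table holds read counts per junction, from which the authors had removed some junction reads, so a 0 there can stand for removed reads. The counting tool, versions and strand setting are not given in the sources used here. Each comparison was fitted on its 6 libraries (12 for differences in change) in R 4.3.3 with edgeR 4.0.16 (filterByExpr, TMM, quasi-likelihood test). The SE was taken as the size of the log2 fold change divided by the root of F. Junctions sharing a splice site with at least 10 reads in every library were tested on the logit of their share, with 0.5 added to each count, by limma 3.58.1. Alternatives were DESeq2 1.42.0, RLE size factors, library sizes alone, other filters, 1 model of 27 libraries, a replicate block, erythroid genes removed and each library left out. Removing the GC and length trend, and requiring 1 read of a junction in every library, were chosen after seeing the data. Replicate numbers did not pair libraries (r of same-numbered deviations -0.31 to 0.25).

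The members and gene lists were chosen with earlier results of these data known. From each list of pathway genes the called gene with the largest change in a comparison is named, except for some genes that are not reported here, beside Apcdd1, Mmd2, Zcchc24, Gfap, Aqp4 and the SOX partners. Genes whose levels are most alike are the 3 with the highest Pearson r of log2(CPM + 1). Versions of the plotting and table tools were Python 3.11.15, pandas 2.3.3, numpy 2.4.6 and matplotlib 3.10.9.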

Additional observations from a re-analysis of the deposited data

How the results depend on the processing

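The number of the 8 genes called depended on the fit in several comparisons. In the early phase of C57BL/6J it was 1, and it was 5 by DESeq2, 2 with library sizes alone, with no filter, with at least 10 reads or with the GC and length trend removed, 4 in 1 model of 27 libraries and 0 with a replicate block. Among all genes 2850 of 19154 were called in that phase. The number was 4480 of 34318 by DESeq2, 3088 of 19154 with library sizes alone, 2996 of 34409 with no filter and 3086 of 16742 with at least 10 reads. It was 4147 of 19051 with the GC and length trend removed, 3809 of 23307 in the 27-library model and 0 of 19154 with a replicate block. In the 27-library model the number of the 8 genes called was 2 in place of 4 in the late phase of AKR/J, 2 in place of 5 early and 0 in place of 5 late in Cav1-null mice. All genes called were then 2366 of 23307 in place of 4409 of 19989, 3056 of 23307 in place of 4666 of 19934 and 829 of 23307 in place of 5530 of 20245. Of the 8 genes, 3 were called early in Cav1-null mice with the GC and length trend removed, and 4339 of 19816 of all genes. On d12 between AKR/J and C57BL/6J the number of the 8 genes called was 4 in place of 2 by DESeq2, library sizes alone, no filter, the 27-library model or a replicate block, and 1 with the GC and length trend removed. All genes called were 6794 of 35682, 4515 of 19320, 6501 of 35765, 10960 of 23307, 6566 of 19320 and 3219 of 19219 in this order, in place of 5529 of 19320. In place of 0 of the 8 genes, 1 was called by DESeq2 or no filter for AKR/J on d17, and 2, 1 and 2 by DESeq2, no filter and the 27-library model for Cav1-null mice on d12. All genes called were 1164 of 36089 and 905 of 36111 for AKR/J, and 1756 of 34548, 750 of 34644 and 1734 of 23307 for Cav1-null mice. For the difference in change of Cav1-null mice the number of the 8 genes called was 2 and 1 early and 2 and 2 late by DESeq2 and no filter. All genes called were 428 of 37585 and 46 of 37686 early and 1294 of 38615 and 1010 of 38662 late. The cause was not tested. The replicate block changed no other count of the 8 genes by over 1.5 times.

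With 1 library left out the count of the 8 genes called ran from 4 to 6, 1 to 4, 0 to 5, 0 to 7, 2 to 6 and 4 to 6 in the early and late phases of AKR/J, then C57BL/6J and then Cav1-null mice. It ran from 0 to 4, 6 to 7 and 0 to 4 for AKR/J against C57BL/6J on d12, d15 and d17, and from 0 to 1, 7 to 8 and 0 to 5 for Cav1-null mice. It was 0 and 0 to 6 for the differences in change of AKR/J, 0 to 3 and 0 to 7 for those of Cav1-null mice and 0 to 2 for the junction ends. The fits without 1 library assume that the other libraries give its spread. The shares of all genes called in these fits are not given here.

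Some values changed sign. Of these only Nr2f1 in AKR/J on d15 was called as reported (-0.39), and none was called after the change. For Zbtb20 these were -0.19, -0.10, -0.15 and -0.0012 with the GC and length trend removed (late AKR/J, early C57BL/6J, early Cav1-null, Cav1-null on d15), 0.084 and 0.12 with library sizes alone (late C57BL/6J, AKR/J on d15) and 0.000475 with at least 10 reads. Nr2f2 in early C57BL/6J was -0.022 with library sizes alone. Nr2f1 in AKR/J against C57BL/6J was 0.29, 0.046 and 0.36 on the 3 days with the GC and length trend removed, and on d17 (-0.01) 0.0021 by DESeq2, 0.0073 with RLE, 0.025 with library sizes alone or 10 reads, 0.018 with no filter, 0.016 with erythroid genes removed, 0.0025 in the 27-library model and 0.033 with a replicate block. On d12 in Cav1-null mice Nfia was 0.020 with library sizes alone, and Nfib -0.0076 in the 27-library model and -0.015 with the GC and length trend removed. With 1 library left out, the following crossed 0. Sox9 ran from -0.27 to 0.17 (early C57BL/6J) and -0.45 to 0.038 (AKR/J, d12), Nr2f2 from -0.10 to 0.13 (early C57BL/6J), Nfia from -0.23 to 0.23 (early Cav1-null), -0.32 to 0.084 (AKR/J, d17) and -0.41 to 0.20 (Cav1-null, d12). Nfib ran from -0.018 to 0.20 (AKR/J, d17) and -0.32 to 0.33 (Cav1-null, d12), Nfic from -0.33 to 0.018 (early Cav1-null), Nr2f1 from -0.14 to 0.28 (AKR/J, d17), and Zbtb20 from -0.17 to 0.022 (late C57BL/6J), -0.076 to 0.081 (late Cav1-null) and -0.14 to 0.045 (AKR/J, d15). The difference in early change of AKR/J ran from -0.45 to 0.80 for Nfix and -0.15 to 0.46 for Nfic.

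Of the other alternatives for single values, 867 kept direction and side of the threshold, 60 gained and 27 lost it. Library sizes alone raised the share of called genes that were higher from 51.4% to 74.7% (early AKR/J), 45.7% to 62.8% (AKR/J, d15), 45.7% to 59.2% (Cav1-null, d15) and 57.2% to 68.4% (late C57BL/6J), and lowered it from 50.6% to 30.2% (AKR/J, d12). They moved the median of all genes to 0.46, 0.23, 0.21, 0.17 and -0.38, against which changes under this scaling are to be read. Removing the GC and length trend moved that share from 57.2% to 43.4% (late C57BL/6J), 47.6% to 33.6% (early C57BL/6J) and 53.1% to 40.1% (late Cav1-null). The 27-library model moved it from 57.2% to 35.2% (late C57BL/6J), 47.6% to 60.6% (early C57BL/6J), 45.7% to 30.1% (AKR/J, d15) and 50.6% to 40.2% (AKR/J, d12). Differences in change rest on few called genes. For AKR/J early, with 15 called, the share was 6.67%, and it was 83.2% with library sizes alone (median of all genes 0.58), 54.2% in the 27-library model, 31.5% by DESeq2 and 27.0% with no filter. For Cav1-null mice late, with 54 called, it was 13.0%, and 28.3% with RLE, 51.6% with the GC and length trend removed, 45.3% by DESeq2 and 53.8% with no filter.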

Other observations

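The genes whose levels were most alike over the 27 libraries, among 16443 genes with a mean of at least 1 CPM, are given as a description, since libraries share strains and days. For Nfib the closest was the SOXD gene Sox5 (r = 0.984), followed by A330084C13Rik (r = 0.94) and Sncaip, and for Nfix they were Trak1 (0.981), Itpk1 (0.977) and Mtss1 (0.977). Nfia was closest to the somatostatin receptor gene Sstr2 (0.937), with Tmem178 and Efnb2 next, and Nfic to Trio (0.948), with Triobp and Dlg5 next. Sox9 was closest to Hnrnpd (0.977), with Shroom3 and Msn next, Nr2f1 to Hnrnpl (0.956), with Nr1h2 and Prr14 next, Nr2f2 to Mcl1 (0.965), with Zfp503 and Patz1 next, and Zbtb20 to Zfp451 (0.943), with Rimklb and Zfp287 next. The closest gene depended on the scaling. Of the 8 first places, those of Nfib (Sox5) and Nfia (Sstr2) were unchanged with CPM on library totals, and only that of Nfib was also unchanged over the 9 group means. Nfix was then closest to Ctnnd2 and Fstl4, Nr2f1 to Sema5b and Txn2 and Nr2f2 to Zfp503 and Adam10. Among the members themselves, Nfia and Nfib had r of 0.87, Nfib and Nfix 0.87, and Nr2f1 and Nr2f2 0.92, and after subtraction of group means Nfia and Nfix had r of 0.94.

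Aqp4, the water channel gene of astrocyte endfeet, was at 2.52, 9.39 and 4.29 CPM in AKR/J d15 and at 15.7, 26.8 and 34.8 CPM on d17. In C57BL/6J Aqp4 went from 2.19, 2.73 and 3.34 CPM to 35.8, 50.5 and 49.9 CPM, and in Cav1-null mice from 4.40, 4.73 and 3.87 CPM to 50.1, 34 and 35 CPM, so that the days did not overlap in any strain.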
